A study of Mus musculus with 20 samples.

Results

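The genes described here encode integrins, cadherins, collagens and laminins, the receptors, junction proteins and matrix proteins through which cells hold on to each other and to the extracellular matrix. They were chosen by symbol: every gene of the array's annotation whose name begins as an integrin alpha or beta chain, a numbered cadherin, a collagen chain or a laminin chain was taken. The pattern picked 92 genes on 99 probes, out of 15968 genes and unnamed probes in all. Of these, 21 were integrins, 17 cadherins, 40 collagens and 10 laminins. The other 4 carry an integrin name but are other proteins (Itgb1bp1, Itgb1bp2, Itgb3bp and Itgbl1) and were kept apart from the 4 families. The expression of these genes was followed in Hepa1-6 cells, an established line from a mouse hepatoma, in 11 numbered samplings over 96 h. Experimental flasks were switched between medium with 0 and with 4 mM glutamine at the start and after 24, 48 and 72 h, and are called glutamine-varied flasks here. Control flasks had fresh medium at the same hours and stayed at 4 mM glutamine, and all media held 25 mM glucose. On each array, Cy5-labelled RNA of glutamine-varied flasks was hybridised together with Cy3-labelled RNA of control flasks.

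Integrins are pairs of 1 alpha and 1 beta chain that bind matrix proteins outside the cell and the actin cytoskeleton inside it, and the beta 1 chain, Itgb1, is shared by many alpha chains. Classical cadherins such as Cdh1, E-cadherin, hold epithelial cells together through their own kind on the next cell and are tied to actin by catenins. Collagens are built from 3 chains wound round each other, as fibrils (types I and V), as the network of basement membranes (type IV) or as proteins that sit on fibrils (types IX and XIV). Laminins are trimers of an alpha, a beta and a gamma chain and are the main glycoproteins of basement membranes, to which epithelial cells bind through integrins.

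The deposited values are log ratios of both channels, taken here to base 2, so that 1 stands for a 2-fold difference. A positive value likely means more RNA in glutamine-varied flasks, whose RNA is channel 1 in the labels. Each array was centred on its median, and all values are relative to it. The dye assignment was the same on all arrays, so a lasting difference between flasks cannot be told apart from a dye bias of the probe. In RNA of whole flasks, fewer cells that express a gene and less RNA per cell cannot be told apart either. The labels give neither the hour nor the glutamine level of a numbered time point. They do not say whether the second array, marked r, is a repeat hybridisation or another flask. The spread between paired arrays, behind the tests among time points and at single time points, may thus be technical. The test of the mean over time points rests on the spread of the time-point means. The channel 2 label of 1 array of time point 4 names cells without glutamine, so the fit was also repeated without time point 4.

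The 20 arrays gave values for 24.7% to 47.9% of their probes, and spots without a value are left blank in the deposited data. Paired arrays of 7 time points correlated across genes with r between 0.516 and 0.689. The r arrays of time points 6 and 10 did not resemble their partners (r = 0.0539 and -0.0168) and were left out, which leaves 18 arrays. Their highest r with any of these 18 arrays was 0.0539 and 0.0090, and with each other they had an r of 0.397. The array kept of time point 6 had its highest r, 0.679, with that of time point 5, and these arrays share the raised spots described next. On the arrays of time points 5 and 6, spots at the start of every run of 20 probe numbers were raised. The median of all spots at positions 1, 2, 3 and 4 was 2.72, 1.24, 0.46 and 0.14 at time point 5. It was 1.28, 0.33, 0.13 and 0.00 on the first array of time point 6. On the other 16 arrays no position from 1 to 4 had a median outside -0.095 to 0.08. Position 1 was taken as missing on both arrays, and for called members at positions 2 to 4 values without them are also given. Of 27 measured members, 10 have a probe at positions 1 to 4.

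**Figure D1:**
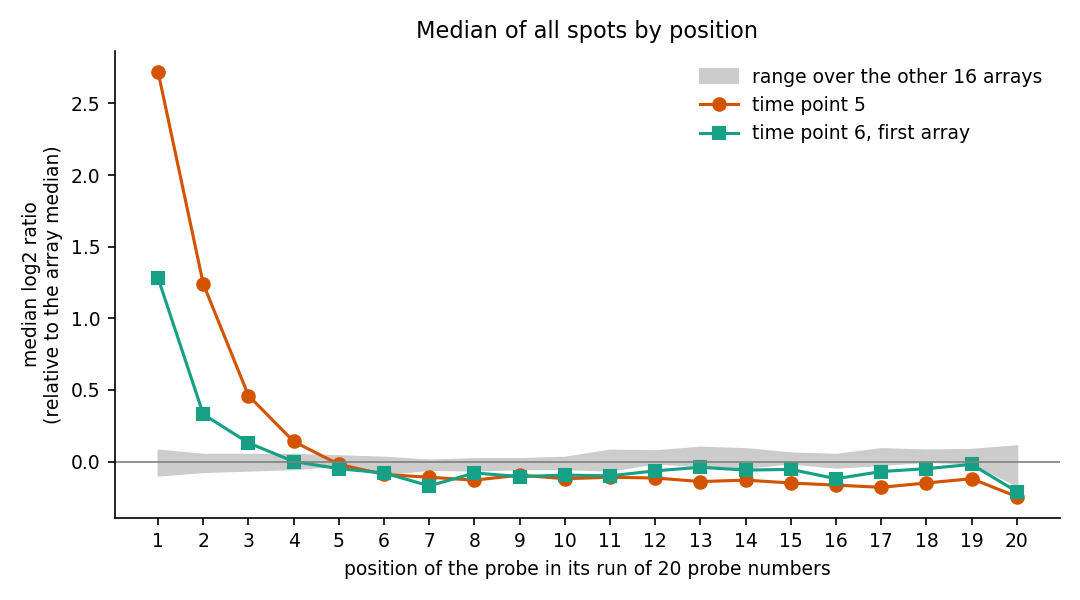
Median log2 ratio of all spots (vertical axis) at each position within a run of 20 probe numbers (horizontal axis) on the arrays of time points 5 and 6, with the range over the other 16 arrays in grey. The first 3 positions stand above the grey band at both time points, with medians of 2.72 and 1.28 at position 1.

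Values were missing for much of the group, as for other named genes. Of the 88 genes of the 4 families, 26 had a value at 9 or more of 11 time points and are called measured here, another 26 had values at 1 to 8 time points, and 27 had none on any of 20 arrays. The remaining 9 had values only on the 2 arrays left out or at spots taken as missing. The measured genes were 7 of 21 integrins, 5 of 17 cadherins, 12 of 40 collagens and 2 of 10 laminins. By the same limit 29.3% of all members were measured, against 29.1% of the 13314 other named genes. Those without a value included Cdh2, N-cadherin, the collagen-binding chain Itga2, the laminin-binding chain Itgb4 and the laminin alpha chains Lama1, Lama2 and Lama3. Just inside the limit, at 9 time points, stood Itga4, Itga5, Itgax, Cdh4, Lamb2 and Lamc3, and just outside, at 8, stood Itga6, Cdh3 and Lamb1, with means of 0.02, -0.56 and -0.14.

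The 4 families did not move as blocks. The median over the measured integrins ranged from -0.18 (time point 4) up to 0.33 (time point 5) and was above 0 at 8 of 11 time points. The cadherin median lay between -0.20 at time point 1 and 0.51 at time point 6, where only 2 genes gave a value, 1 of them (Cdh4) at a raised spot position. The collagen median stayed between -0.15 at time point 10 and 0.16 at time point 2. The 2 laminins gave medians between -0.21 at time point 1 and 0.32 at time point 10, where Lamb2 alone gave a value. Over all genes tested, the same median lay between 0.00 and 0.07 at every time point.

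**Figure D2:**
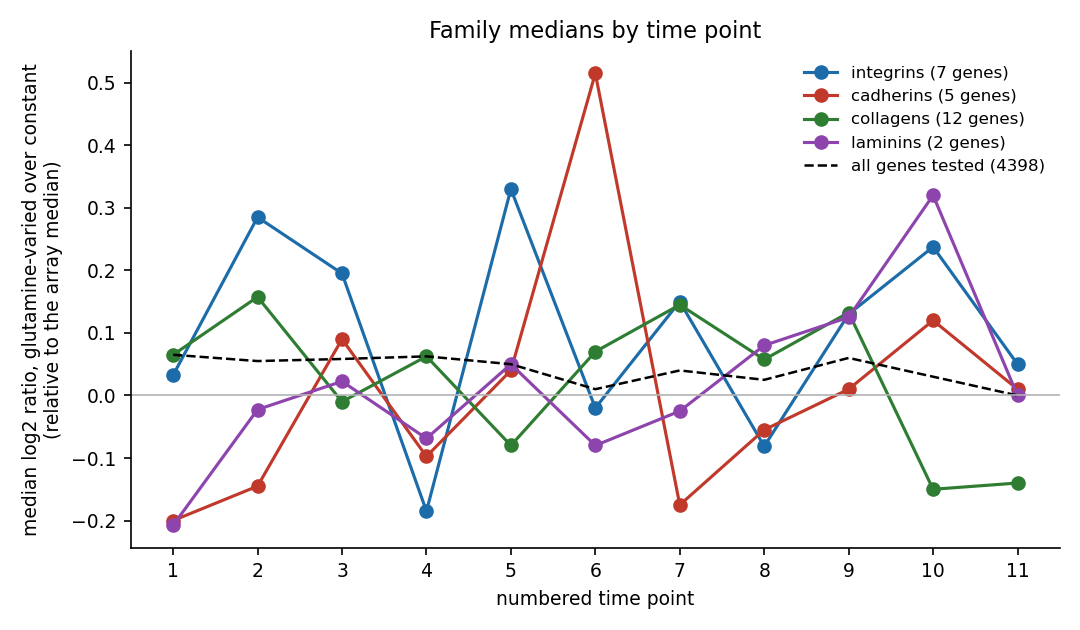
Median log2 ratio, likely glutamine-varied over control flasks and relative to the array median (vertical axis), of the measured members of each family at the 11 time points (horizontal axis), with the median of all 4398 genes tested dashed. Family medians cross 0 several times, and the highest point, 0.51 for cadherins at time point 6, rests on 2 genes.

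Within the families, single genes stood on both sides of the array median. In the mean over time points, tested with limma, 6 of 26 measured members were higher in glutamine-varied than in control flasks (Benjamini-Hochberg adjusted p under 0.05 over 4398 genes), while 21.2% of all genes tested were called higher. Another 5 were lower, while 12.2% of all genes tested were called lower, and 15 were not called. The higher genes were the integrin alpha chains Itga4, Itga8 and Itga3, the cadherin Cdh13 and the collagens Col7a1 and Col1a2. The lower genes were Itgb1, Itga5, Cdh1, Col14a1 and Col9a1. The median of the means was 0.17 for integrins, 0.04 for cadherins, 0.06 for collagens and 0.00 for laminins, beside 0.03 for all genes with as many time points. Without time points 5 and 6 the integrin median was 0.04, over 9 integrins that passed a lower limit of time points. Without all time points of 1 array it was 0.04 as well, over 10 integrins. Both sets hold integrins outside the 7 measured here, so these medians do not show the effect of the time points alone. These calls depend on what the arrays are centred on. Centring on the genes with a value on every array lowered the mean of genes on all 18 arrays by 0.12, and of the 6 higher genes only Itga8 remained called. Without centring the mean of such genes was 0.25 higher, and of the 5 lower genes only Col9a1 remained called. Neighbouring time points resembled each other more than distant ones (mean r of 0.494 against 0.335 across genes), so p-values of the mean may be too small.

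**Figure D3:**
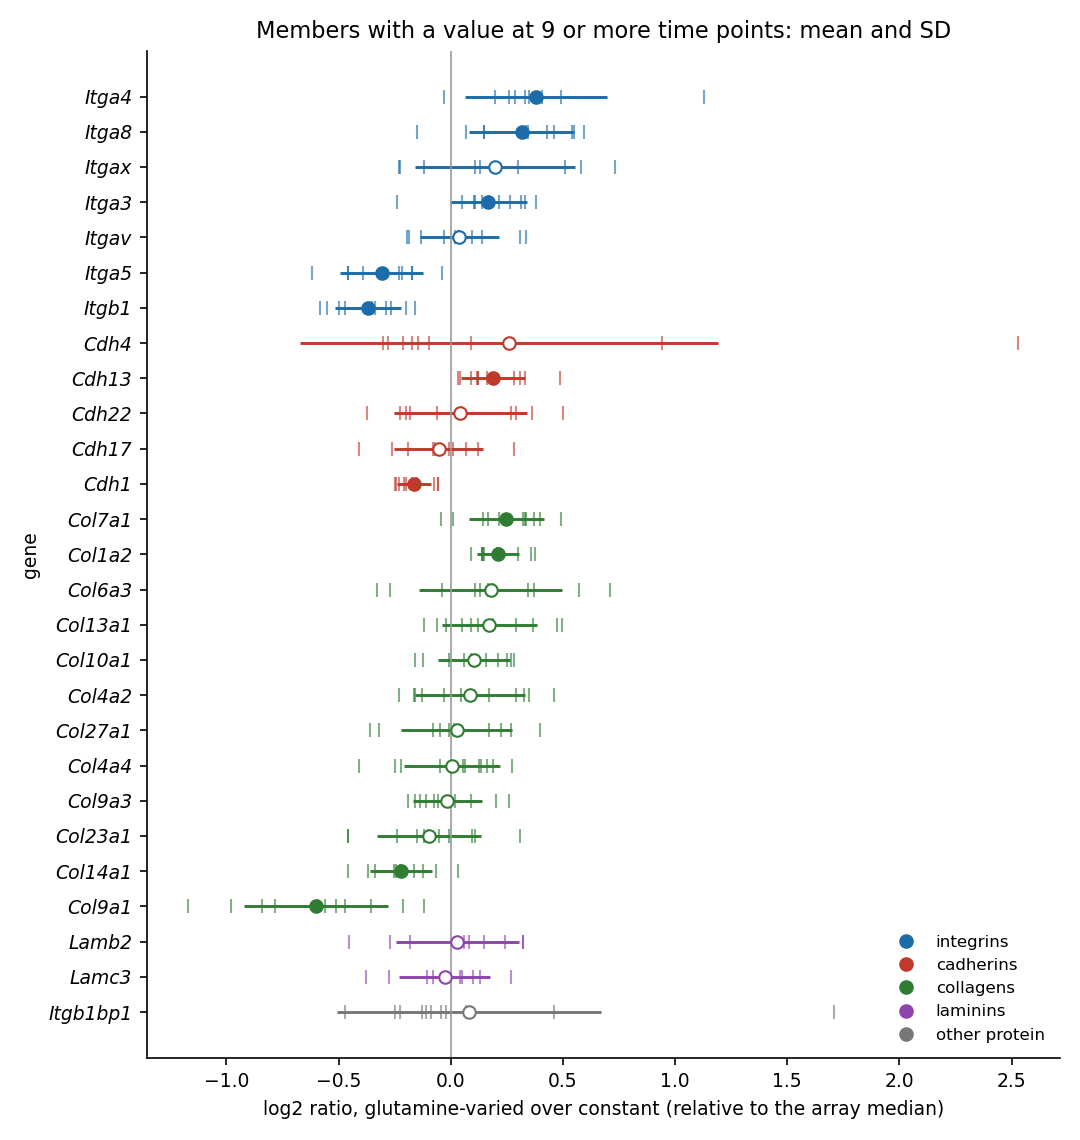
Mean log2 ratio over time points, likely glutamine-varied over control flasks and relative to the array median (horizontal axis), for the 26 measured family members and Itgb1bp1 (vertical axis), coloured by family. Bars show the SD over 9 to 11 time points, ticks single time points and filled circles an adjusted p under 0.05, and Col9a1 (-0.60) and Itgb1 (-0.37) lie farthest below 0. Without centring, Cdh1 and Col14a1 had means above 0.

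Among integrins, the shared beta chain was lower and several of its alpha partners were higher. Itgb1, the beta 1 chain, had time-point values of -0.55, -0.35, -0.26, -0.58 and -0.50 at time points 1 to 5 and of -0.34, -0.47, -0.16, -0.29 and -0.20 at time points 7 to 11. It was below 0 on all 16 arrays that gave a value. The only Itgb1 probe with values is at position 3. Its mean of -0.37 ± 0.15 (SD, n = 10 time points) had a limma adjusted p of 0.000298, and it was -0.36 (adjusted p = 0.000439) with the first 4 spot positions left out. Without centring the mean was -0.10 (adjusted p = 0.159). Itga5, which forms the fibronectin receptor with Itgb1, was at -0.62, -0.17, -0.17 and -0.22 at time points 1 to 4 and at -0.04, -0.39, -0.46, -0.46 and -0.23 at time points 7 to 11. It was below 0 on 12 of 13 arrays, the exception being 0.20 on the second array of time point 3. The mean was -0.31 ± 0.18 (SD, n = 9 time points, limma adjusted p = 0.00366), and -0.01 (adjusted p = 0.894) without centring.

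Itga4 pairs with Itgb1 to bind fibronectin and the vascular adhesion molecule VCAM1. Its values were 0.26, 0.28, 0.20 and 0.35 at time points 1 to 4 and 0.33, -0.03, 0.41, 1.13 and 0.49 at time points 7 to 11, so that only time point 8, with 1 array, was below 0. The mean was 0.38 ± 0.32 (SD, n = 9 time points, limma adjusted p = 0.00742). The probe is at position 1, and its values of 3.16 and 1.70 at time points 5 and 6 were taken as missing. Itga8, which forms a receptor for nephronectin with Itgb1, was at 0.60, 0.34, 0.34, 0.43, 0.46 and -0.15 at time points 1 to 6 and at 0.15, 0.07, 0.15, 0.54 and 0.55 at time points 7 to 11. It was the only integrin whose call held in every alternative tried, with a mean of 0.32 ± 0.23 (SD, n = 11 time points, limma adjusted p = 0.00306). Itga3, a laminin-binding alpha chain, averaged 0.17 ± 0.17 (SD, n = 11 time points, limma adjusted p = 0.0356) and was above 0 on 15 of 18 arrays, but lost its call in 13 of 36 alternatives, as low as 0.05 (adjusted p = 0.525). Itgav, which binds vitronectin and fibronectin, averaged 0.04 ± 0.18 (SD, n = 11 time points). Its 2 probes with values, both at raised positions, averaged -0.12 ± 0.50 and 0.11 ± 0.16 on arrays centred with all spots. Itgax, a leukocyte integrin chain, averaged 0.20 ± 0.36 (SD, n = 9 time points, limma adjusted p = 0.152).

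**Figure D4:**
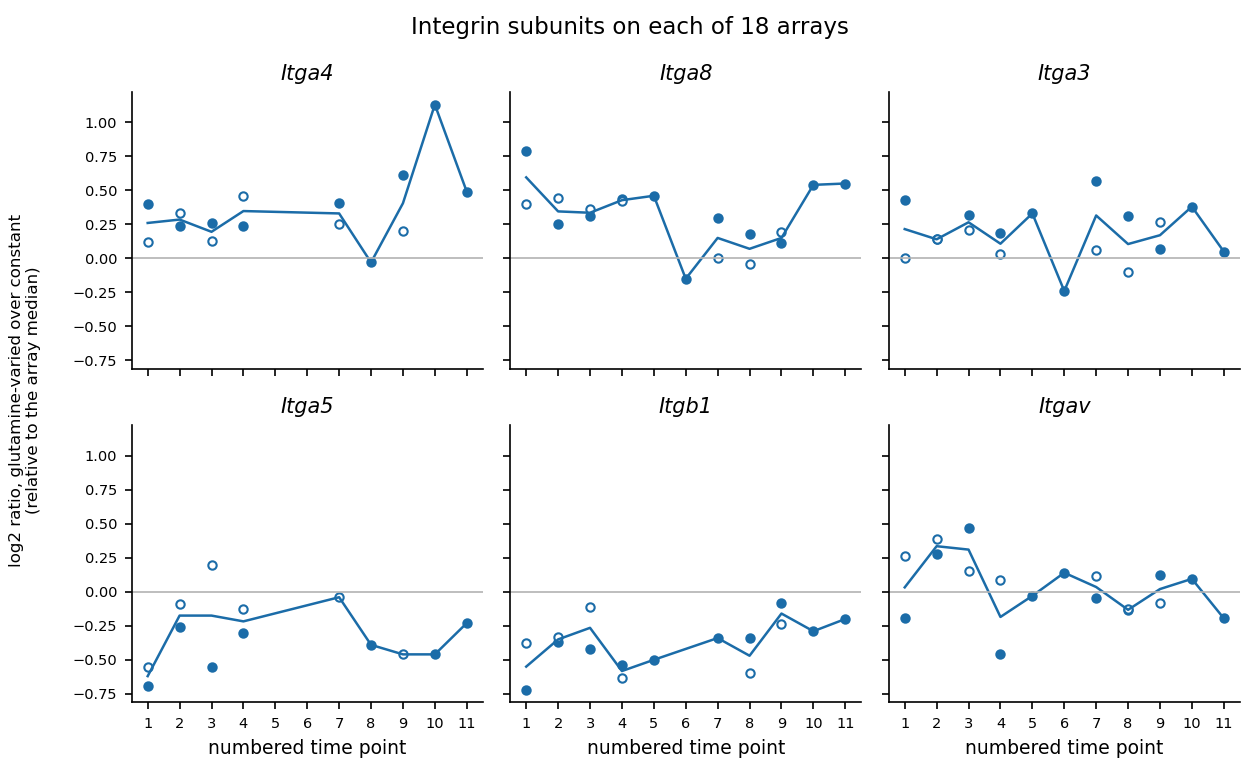
Log2 ratio, likely glutamine-varied over control flasks and relative to the array median (vertical axis), of 6 integrin chains at the 11 time points (horizontal axis). Filled circles are first arrays, open circles r arrays and lines join time-point means; Itgb1 is below 0 on all its 16 arrays, Itga5 on 12 of 13, and Itga4 is above 0 on 14 of 15.

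Set against its partners at the same time points, Itgb1 had the lower log2 ratio at 10 of 10 time points shared with Itga3, 10 of 10 with Itga8, 10 of 10 with Itgav, 9 of 9 with Itga4 and 8 of 8 with Itga6. The mean difference of log2 ratios, Itgb1 minus partner, lay between -0.74 ± 0.30 for Itga4 and -0.40 ± 0.20 for Itgav (SD over shared time points). Against Itga5 it was lower at 5 of 9 time points, with a mean difference of -0.05 ± 0.22. These are differences of time-point means. The centring cancels where both chains had values on the same arrays. It does not cancel where a chain lacked a value on 1 of 2 arrays, as Itgb1 did on the r array of time point 7. A dye bias of either probe would enter all these differences. They were not tested, because the pairs were formed with the means known.

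The promoter windows of Itgb1 and Itga5, the integrin chains that were lower together, are shown beside those of Itga4, which was higher, and of Col9a1, the lowest measured collagen. The windows run from 250 bases before to 50 after a start annotated by RefSeq on mouse build GRCm38.p6, 5′ to 3′ on the gene's strand. They lie at chr8:128685404-128685703 (plus strand) for Itgb1, chr15:103366742-103367041 (minus strand) for Itga5, chr2:79255176-79255475 (plus strand) for Itga4 and chr1:24177360-24177659 (plus strand) for Col9a1, at the first of 2 listed starts of that gene. Capitals mark GC boxes, the letters GGGCGG on either strand.
Itgb1: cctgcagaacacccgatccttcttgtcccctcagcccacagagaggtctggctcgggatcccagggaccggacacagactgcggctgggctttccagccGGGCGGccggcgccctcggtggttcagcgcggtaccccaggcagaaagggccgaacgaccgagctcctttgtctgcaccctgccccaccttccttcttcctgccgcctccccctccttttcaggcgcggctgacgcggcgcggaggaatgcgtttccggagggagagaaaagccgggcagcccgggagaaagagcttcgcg
Itga5: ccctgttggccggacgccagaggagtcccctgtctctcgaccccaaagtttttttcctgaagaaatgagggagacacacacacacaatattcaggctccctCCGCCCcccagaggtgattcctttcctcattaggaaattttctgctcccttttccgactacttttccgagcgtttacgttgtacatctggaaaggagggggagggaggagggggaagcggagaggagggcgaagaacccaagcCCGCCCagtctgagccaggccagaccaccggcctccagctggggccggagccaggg
Itga4: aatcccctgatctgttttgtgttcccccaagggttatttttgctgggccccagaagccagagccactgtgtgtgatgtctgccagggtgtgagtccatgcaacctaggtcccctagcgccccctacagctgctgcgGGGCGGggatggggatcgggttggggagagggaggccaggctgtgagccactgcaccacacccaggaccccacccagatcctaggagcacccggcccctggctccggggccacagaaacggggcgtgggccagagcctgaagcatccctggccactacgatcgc
Col9a1: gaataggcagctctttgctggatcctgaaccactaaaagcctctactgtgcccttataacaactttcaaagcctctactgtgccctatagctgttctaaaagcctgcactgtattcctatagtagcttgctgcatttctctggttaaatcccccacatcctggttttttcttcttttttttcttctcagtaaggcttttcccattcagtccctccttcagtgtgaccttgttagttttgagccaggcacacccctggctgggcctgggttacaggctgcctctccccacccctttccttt
Itgb1 and Itga4 each hold 1 GC box and Itga5 holds 2, while the Col9a1 window holds none. GC content was 67.3% for Itgb1, 58.7% for Itga5, 64.3% for Itga4 and 47.3% for Col9a1. A GC box was found in 34 of the 59 family members with a listed window (57.6%) and in 35.9% of 27025 windows of the same length. The letters TGATGNAA, the core of the amino acid response element bound by ATF4, were searched on both strands. They were in none of the 59 member windows and in 4.06% of all windows. The TATA box letters TATAAA (5 of 59 windows, beside 14.2% of all) and the E-box letters CACGTG (1 of 59, beside 7.24%) were also searched, as were the CCAAT letters (18 of 59, beside 37.9%). None of the 4 windows shown held any of these. A match is a description of letters and not of a bound site.

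Cadherins showed 1 lower and 1 higher member. Cdh1, E-cadherin, was at -0.20, -0.21, -0.07, -0.06 and -0.23 at time points 1 to 5 and at -0.24, -0.05, -0.17, -0.25 and -0.15 at time points 7 to 11. All 10 time points lay below 0, with the smallest SD over time points of any called member, and 3 of 17 single arrays lay above 0. The mean was -0.16 ± 0.08 (SD, n = 10 time points, limma adjusted p = 0.0164), and without centring it turned to 0.10 (adjusted p = 0.18). Cdh13, a cadherin without a cytoplasmic tail that is held in the membrane by a lipid anchor, stood at 0.49, 0.33, 0.28 and 0.31 at time points 1 to 4, against 0.04 and 0.09 at time points 5 and 6 and 0.12, 0.16, 0.11, 0.12 and 0.03 at time points 7 to 11. Its mean was 0.19 ± 0.14 (SD, n = 11 time points, limma adjusted p = 0.0129), and the F-test among time points did not call it (adjusted p = 0.673). Cdh1 was below Cdh13 at 10 of 10 shared time points. Cdh17, the liver-intestine cadherin, averaged -0.05 ± 0.20 and Cdh22, a brain cadherin, 0.04 ± 0.30 (SD, n = 10 time points each), and neither mean was called.

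Cdh4, R-cadherin, stood apart at time points 5 and 6. Its values were -0.30, -0.14, 0.09 and -0.10 at time points 1 to 4, then 2.53 and 0.94 at time points 5 and 6, and -0.17, -0.28 and -0.21 at time points 7 to 9. Its probe sits at position 2, where the median of all spots was itself 1.24 and 0.33 on those arrays. Its difference among time points had an adjusted p of 2.86e-18 in the moderated F-test. With the first 4 positions left out at those time points the adjusted p was 0.605. Itgb1bp1, a cytoplasmic protein that binds the tail of beta 1 integrin, is at position 3 and showed the same: 1.71 and 0.46 at time points 5 and 6, against -0.47 to 0.07 at the other 9, with an adjusted p of 2.08e-09 that became 0.719.

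Of the measured members, a collagen had the mean farthest from 0. Col9a1, a chain of type IX collagen of cartilage, was at -0.12, -0.35, -0.47, -0.21, -0.56 and -0.84 at time points 1 to 6 and at -0.51, -0.59, -0.79, -1.17 and -0.98 at time points 7 to 11. It was below 0 on 17 of 18 arrays and at 0.00 on the first array of time point 1. The mean was -0.60 ± 0.32 (SD, n = 11 time points, limma adjusted p = 0.000164), and it remained called in all 36 alternatives, between -0.72 and -0.35. It also differed among time points (F-test adjusted p = 0.00185), but not without all time points of 1 array (0.116). Its log2 ratio averaged -0.29 over time points 1 to 4, -0.63 over 7 to 9 and -1.07 over 10 and 11. A straight line over time point number, fitted after the values had been seen, gave -0.08 ± 0.02 (SE) per step, with an adjusted p of 0.145. No gene of 4398 (0%) was called for such a line by limma, while 503 had an unadjusted p under 0.05. Its partner chain Col9a3 averaged -0.02 ± 0.15 (SD, n = 10 time points) and was above Col9a1 at 10 of 10 shared time points, and Col9a2 gave no value.

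Col14a1, a fibril-associated collagen, averaged -0.22 ± 0.14 (SD, n = 11 time points, limma adjusted p = 0.00495) and was below 0 on 17 of 18 arrays, but without centring its mean was 0.03. Its 2 probes averaged -0.34 ± 0.16 and -0.15 ± 0.21, on arrays centred with all spots, and with only the probe of more values the mean was -0.14 (adjusted p = 0.101). Col1a2, the second chain of type I collagen, was above 0 on all 18 arrays. Its time-point values were 0.38, 0.22, 0.14, 0.36, 0.09 and 0.14 at time points 1 to 6 and 0.20, 0.14, 0.20, 0.30 and 0.15 at time points 7 to 11. The mean was 0.21 ± 0.09 (SD, n = 11 time points, limma adjusted p = 0.00304). It was 0.23 (adjusted p = 0.00364) without the first 4 spot positions, and 0.09 (adjusted p = 0.108) when arrays were centred on genes with a value on every array. Col1a1, the major chain of the same trimer, was seen on only 6 arrays and was below Col1a2 at 5 of 5 shared time points, with a mean difference of -0.68 ± 0.28 (SD). Col7a1, which forms the anchoring fibrils below epithelia, averaged 0.25 ± 0.17 (SD, n = 11 time points, limma adjusted p = 0.00395). Without the first 4 spot positions the mean was 0.21 (adjusted p = 0.0149).

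Other collagens had values on both sides of 0 over the series, without a call in the mean. Col6a3, the large chain of type VI collagen, was at 0.17, 0.19, 0.37, 0.13, 0.71, 0.11, 0.57 and 0.34 at time points 1 to 8 and at -0.04, -0.33 and -0.27 at time points 9 to 11. It differed among time points (F-test adjusted p = 0.00732, and 0.0195 without the first 4 spot positions), but not without all time points of 1 array (0.273). Col13a1, a membrane-bound collagen, averaged 0.41 over time points 1 to 4, 0.12 over 7 to 9 and 0.01 over 10 and 11, with an overall mean of 0.17 ± 0.21 (SD, n = 11 time points, limma adjusted p = 0.0541). Its probe is at position 4, and with the first 4 positions left out the mean was 0.22 (adjusted p = 0.018). Col27a1, a fibrillar collagen, went the same way, with averages of 0.23, 0.03 and -0.34 over these 3 spans. Col4a2, of the basement membrane network, went the other way, with -0.12, 0.18 and 0.41, while Col4a4, another type IV chain, had 0.13, 0.09 and -0.23. The F-test called neither Col13a1 (adjusted p = 0.137), Col27a1 (0.07), Col4a2 (0.0842) nor Col4a4 (0.266). Col10a1, of growing cartilage, averaged 0.10 ± 0.16 (SD, n = 10 time points) and Col23a1, a membrane collagen, -0.10 ± 0.23 (SD, n = 11 time points), and neither was called.

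**Figure D5:**
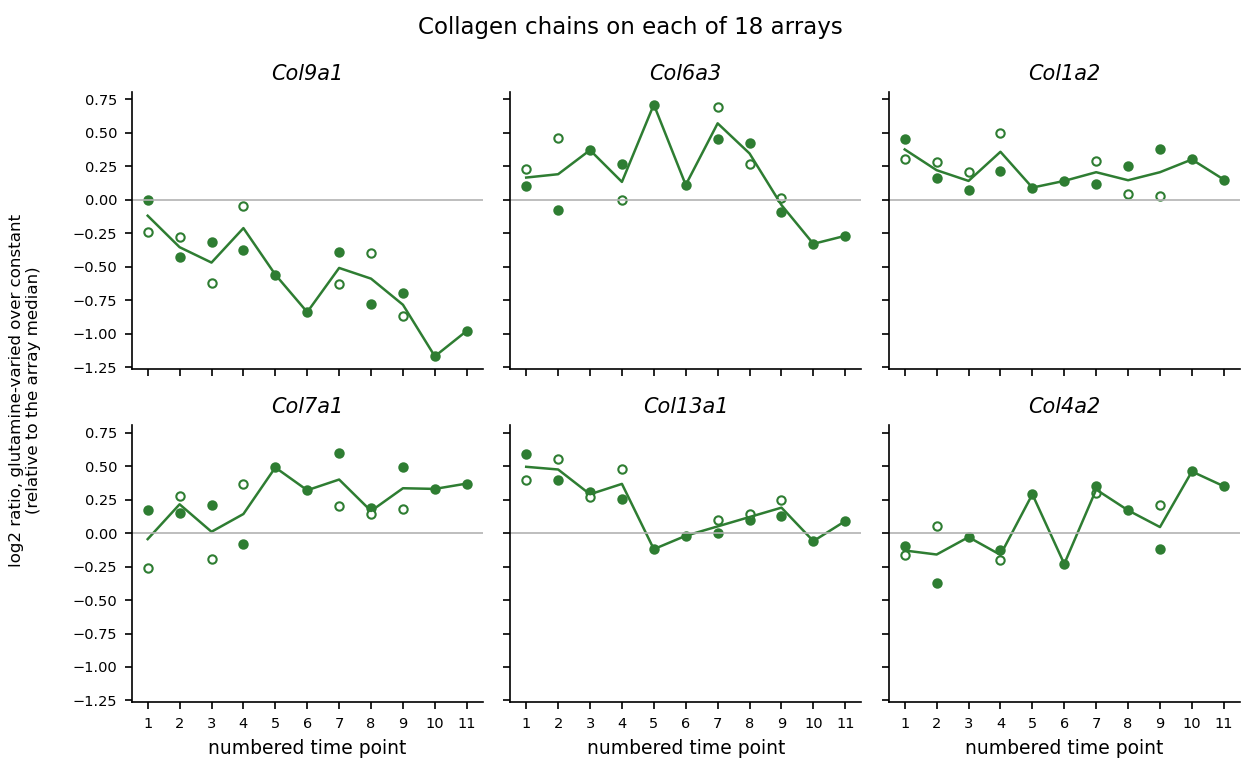
Log2 ratio, likely glutamine-varied over control flasks and relative to the array median (vertical axis), of 6 collagen chains at the 11 time points (horizontal axis). Filled circles are first arrays, open circles r arrays and lines join time-point means; Col9a1 reaches -1.17 at time point 10, Col6a3 is below 0 at time points 9 to 11, and Col1a2 is above 0 on all 18 arrays.

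Both measured laminins were near 0 in the mean, Lamb2 at 0.03 ± 0.27 and Lamc3 at -0.03 ± 0.20 (SD, n = 9 time points each). Lamb2, a beta chain of basement membranes of muscle, nerve and kidney, was at -0.46, 0.06, 0.32 and 0.24 at time points 1 to 4 and at -0.18, 0.08, 0.15, 0.32 and -0.27 at time points 7 to 11. It differed among time points (F-test adjusted p = 0.0105), and without the second array of time point 1 the adjusted p was 0.0744. Lamb1, with 8 time points, averaged -0.14 ± 0.15 (SD) and was below 0 at 7 of them.

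The F-test among time points, in which a constant dye bias cancels, called 6 of 24 family members and Itgb1bp1, while 30.7% of 4006 genes were called. With the first 4 spot positions left out at time points 5 and 6 it called 5 of 24, while 25.5% of 3923 genes were called, and the 5 were Col9a1, Col6a3, Lamb2, Cdh22 and Itga4. Cdh22 had values of -0.20, -0.06, 0.27, -0.23 and 0.50 at time points 1 to 5 and of -0.37, -0.18, 0.05, 0.29 and 0.36 at time points 7 to 11, with an adjusted p of 0.0112. For Itga4 the adjusted p was 0.0308, and 0.725 without the only array used of time point 10, where it stood at 1.13.

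At single time points with 2 arrays, 22 of 161 tests of members against 0 were called by limma. At time point 1, Cdh13, Col13a1, Col1a2, Col27a1 and Itga8 were higher and Itgb1 and Lamb2 lower, 7 of 24 members, while 20.6% of all genes tested were called. At time point 4, Col13a1, Col1a2 and Itga8 were again higher and Itgb1 lower, now with Cdh17 (-0.41), 5 of 25 members while 24.4% of all genes were called. Time point 2 had only Col13a1 (0.47), 1 of 24 members beside 3.92% of all genes, and time point 3 only Col9a1 (-0.47), 1 of 23 beside 12.1%. At time point 7, Col6a3 (0.57) and Col7a1 (0.40) were higher and Col9a1 (-0.51) and Cdh22 (-0.37) lower, 4 of 22 members beside 28.4% of all genes. Time point 8 had Col9a1 (-0.59) and Itgb1 (-0.47) lower, 2 of 19 beside 7.39%, and time point 9 had Col9a1 (-0.79) lower and Itga4 (0.41) higher, 2 of 24 beside 10.5%. Col9a1 was thus called at 4 of 7 such time points and Itgb1 and Col13a1 at 3. Members measured on both arrays of a time point correlated between them with r between 0.407 (time point 7) and 0.707 (time point 1), over 18 to 26 genes.

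With all 20 arrays and all spots, 10 of the 11 mean calls were made again. There 5 of 27 members were higher, while 13.6% of 4752 genes were called higher, and 5 were lower, while 9.05% were called lower. The call missing was that of Itga3 (0.14, adjusted p = 0.0805). The mean of Itga4, 0.75 (limma adjusted p = 0.0473), holds its raised spots at time points 5 and 6. With raised spots left out of the 20 arrays it was 0.38 (adjusted p = 0.0171). The time-resolved calls did not hold: the F-test called 2 of 24 family members (Itga4 and Cdh4, both with raised spots) and Itgb1bp1, while 7% of 3744 genes were called, and 1 of the single time point tests was called. Col9a1 then had an F-test adjusted p of 0.54, Col6a3 of 0.245, Lamb2 of 0.649 and Cdh22 of 0.28. The second array of time point 6 gave a value for only 4 of the 27 measured members, between -0.23 and 0.35, and that of time point 10 for 24, between -1.91 and 0.55.

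Members seen at fewer time points mostly lay below 0, as did other genes. Of 14 family members with 5 to 8 time points 10 had a mean below 0 (71.4%), beside 74.9% of 2363 genes with as many, and of 12 with 1 to 4 time points 9 did (75%), beside 67.2% of 3321. At 9 or more time points it was 9 of 26 members (34.6%) beside 45.1% of 4371 genes. Among those with 5 to 8 time points, means far below 0 were those of Itgb2, the leukocyte beta 2 chain (-0.64 ± 0.43, n = 6 time points), Col15a1 (-0.63 ± 0.29, n = 7), Cdh3, P-cadherin (-0.56 ± 0.28, n = 8), Col1a1 (-0.49 ± 0.24, n = 5) and Itgb6 (-0.43 ± 0.16, n = 7), all SD and untested. Why a spot was left blank is not stated in the labels, and the part of missing values in these means was not tested. Lama4 had a single value, 1.70 at time point 6, at the raised position 2. Lamb3 had -1.70 at time point 7 and 2.02 on the array of time point 5, where its position 3 was raised.

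Genes that work with these families were counted from lists, beside the 21.2% of all genes that were called higher and the 12.2% called lower. Of integrin adhesion and signalling genes, 1 of 8 tested was higher (the tetraspanin Cd63, 0.16 ± 0.16) and none lower. Of adherens junction and desmosome genes, 3 of 9 were higher, among them the desmosomal cadherin Dsc2 (0.46 ± 0.17) and the plakophilin Pkp2 (0.29 ± 0.24), and 2 were lower, Pkp3 (-0.31 ± 0.20) and Cdh1. Of tight and gap junction genes, 1 of 3 was higher, the connexin Gjb2 (0.23 ± 0.17). Of other matrix proteins, 3 of 11 were higher, with the milk fat globule protein Mfge8 at 0.56 ± 0.14, and 2 were lower, the fibulins Fbln5 (-0.59 ± 0.23) and Fbln2 (-0.32 ± 0.23). Of matrix processing genes, 1 of 4 was lower: P4hb, the beta subunit of the collagen prolyl hydroxylase and a folding enzyme of the endoplasmic reticulum, at -0.59 ± 0.38 (all SD over 9 to 11 time points). P4hb also differed among time points (F-test adjusted p = 0.000169). List medians of the mean lay between -0.03 and 0.08, beside 0.03 for all genes. With all 20 arrays Cd63 (adjusted p = 0.183), Pkp3 (0.0588) and Pkp4 (0.0605), one of the higher junction genes, were not called.

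As for cell type, 5 of 6 hepatocyte markers on the array gave a value, and of 4 tested Alb (-0.59 ± 0.21, n = 9 time points) and Fgb (-0.27 ± 0.34, n = 11 time points, SD) were lower and none higher. Of 5 stellate cell or fibroblast markers tested, Col1a2 was higher and Pdgfrb lower (-0.29 ± 0.35), and of 3 bile duct markers Krt19 was lower (-0.26 ± 0.28). The 1 endothelial marker tested, Kdr, was higher (0.21 ± 0.17, SD, n = 9 time points each), Cd3e among T and B cell markers was not called, and the 3 macrophage markers on the array gave no value. The same background shares apply. With all 20 arrays and all spots, limma called Alb and Col1a2, but not Fgb (adjusted p = 0.0525), Pdgfrb (0.0529), Kdr (0.0959) or Krt19 (0.687). The mean there was 0.35 for Kdr and turned to 0.16 for Krt19. Both have a probe at position 1, whose raised spots at time points 5 and 6 are kept in that setting. Pdgfrb has a probe at position 3, also raised there. The part of these spots in the changes was not tested. Ratios give no level, and the part of these genes in the results above was not tested.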

How the data were processed

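RNA of 11 time points was measured on 20 spotted arrays. The deposited values are log2 ratios, 1 column per array; base and direction were inferred, and the normalization is not stated in the labels. Per the labels, control RNA carried Cy3 and experimental RNA Cy5. Intensities were not used here. The members, lists, limits and the arrays and spots left out were chosen with earlier results of these data known. Symbols came from the platform annotation, and all 99 probes of members matched RefSeq by gene ID.

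Arrays were centred on their median and probes of 1 symbol averaged. In R 4.3.3, limma 3.58.1 tested the mean of time-point means against 0 (genes with 9 or more of 11 time points) and single time points. A moderated F-test with limma's squeezed variances compared time points (14 or more of 18 arrays, 4 or more residual degrees of freedom). Calls had a Benjamini-Hochberg adjusted p under 0.05. Scripts were tested on simulated data. All measured members are named, and related lists by up to 3 called members. Differences of r minus first arrays correlated between time points with r from -0.432 to 0.332 over 21 pairs, on both sides of 0. First and r numbers were not treated as pairs across time points in the main fit. The number of arrays limits precision, and depth does not apply. Alternatives covered array and spot sets, centring, scaling, filters, probes and single arrays.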

Additional observations from a re-analysis of the deposited data

Results flagged for a closer look

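By the moderated F-test on 18 arrays, 30.7% of 4006 genes differed among time points. Of 25 members tested, 7 did so in the log2 ratio, likely glutamine-varied over control flasks. They were Cdh4 (adjusted p = 2.86e-18), Itgb1bp1 (2.08e-09), Col9a1 (0.00185), Col6a3 (0.00732), Lamb2 (0.0105), Cdh22 (0.0112) and Itga4 (0.0308). Cdh4 and Itgb1bp1 are at spot positions 2 and 3, which were raised at time points 5 and 6, and their adjusted p was 0.605 and 0.719 without the first 4 positions there. Single arrays decided 3 others. Itga4 had an adjusted p of 0.725 without the array of time point 10 and 0.0593 without the first array of time point 8, Lamb2 0.0744 without the second array of time point 1, and Cdh22 0.0501 without the array of time point 5. Col9a1 and Col6a3 stayed below the threshold without any 1 of the 18 arrays, at up to 0.0219 and 0.0359, but had 0.54 and 0.245 with all 20 arrays. Without all time points of 1 array, neither was called by the F-test (adjusted p = 0.116 for Col9a1 and 0.273 for Col6a3).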

How the results depend on the processing

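In the main fit 6 of 27 measured members were higher and 5 lower. Family medians were 0.17 (integrins), 0.04 (cadherins), 0.06 (collagens) and 0.00 (laminins). Of 25 members in the F-test 7 differed among time points, and 22 of 161 tests at single time points were called. The number of members tested changed with the setting. Shares of all genes called are given above for the main fit and for all 20 arrays. They were not computed for most other settings, so the counts below describe how calls moved and not a trait of the members. With all 20 arrays, 3 of 25 members differed among time points, or 2 of 24 with raised spots left out. In both cases 1 single time point call was made. Without centring the mean of members with a value on all 18 arrays was 0.25 higher. In that setting 21 of 27 were higher, 1 was lower and 94 calls were made at single time points, with family medians of 0.42, 0.31, 0.31 and 0.25. Cdh1 (0.10), Cdh17 (0.21), Col14a1 (0.0295), Col9a3 (0.25) and Lamc3 (0.19) then changed sign with a call in either setting, and Col23a1 (0.15) with none. Centring on genes with a value on every array left 1 higher and a collagen median of -0.0689. First arrays alone gave 3 lower of 24 tested, and r arrays alone 2 of 24. Without time points 5 and 6 a gene needed fewer time points, and the integrin median was 0.035 over 9 genes. There 8 of 34 members were lower and 4 of 28 differed among time points. Without all time points of 1 array the limit was lower too. Of 36 members 10 were then lower, 2 of 27 differed among time points and Itgb1bp1 changed sign (-0.19). Values at 6 or more time points gave 9 lower. Complete values gave 2 lower, 1 that differed among time points and 13 single calls. The cause was not tested, apart from the other genes and arrays that these settings hold. With the replicate block of first and r arrays, 7 members differed among time points and 22 single calls were made, the same counts as in the main fit. Single calls were not compared gene by gene. Leaving out each array in turn gave 4 to 7 higher, 4 to 6 lower, 5 to 8 that differed among time points and 16 to 23 single calls. Of 1748 recomputed values of single members, 1648 kept their side of the threshold, 58 lost a call, 36 gained one and 6 changed sign where either value was called. Sign changes of values called in neither setting are not among these 6. Leaving out the first 4 spot positions and the straight line over time points were chosen after seeing the data.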
